A study of Medicago truncatula with 6 samples.

Results

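Short terminal inverted repeat elements are the annotated transposon fragments whose source element is at most 800 bp long, the size of a miniature inverted-repeat transposable element. They were chosen by their ID, which had to name a terminal inverted repeat and whose pair of source coordinates gave the length. Of 400216 annotated features, 14192 met this rule, and 82973 further features were fragments of longer terminal inverted repeat elements. The choice used no counts.

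DNA transposons of this order carry inverted repeats at both ends, which their transposase recognises when it cuts the element out and inserts it elsewhere. Miniature elements have lost the transposase gene and depend on that of a longer relative, and they often lie in many copies near plant genes. A transcript that reads through both inverted repeats can fold into a hairpin, and Dicer-like enzymes cut such hairpins into small RNAs. SKI3 belongs to the Superkiller complex, which feeds RNA to the cytoplasmic exosome for decay.

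The libraries held small RNA of Medicago truncatula roots, all mock-treated and of genotype WT in the labels; this species is a model legume. The groups were roots with RNAi against SKI3, with 3 libraries, and roots with RNAi against GUS, a reporter from bacteria that plants do not carry, also with 3 libraries. The labels do not state how the RNAi was driven or whether the replicates came from separate plants, so p-values measure the spread between these libraries, which may be technical. Total counts were 2324061 to 2851473 in the SKI3 RNAi libraries and 2168297 to 3974092 in the GUS RNAi libraries. A floor of 3 counts in a library, which covers counting error only, corresponded to 1.05 to 1.29 CPM (counts per 1000000 of the library) in SKI3 RNAi and 0.755 to 1.38 CPM in GUS RNAi. The level of the SKI3 gene and markers of root cells were not analysed here, because the feature IDs were not paired with gene names.

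The 14192 fragments traced back to 4472 source elements in 3305 families. Source elements were 118 to 800 bp long, with a median of 386 bp. Most families were singletons in the annotation's own naming, with 2987 families of 1 source element each, and these held 9834 fragments or 69.3% of all. Fragments per source element had a median of 2, and 1945 source elements had 1 fragment. The element with the most fragments, element3386 of DTX_family0, a source element of 248 bp, had 44 fragments on all 8 chromosomes. The fragments were spread over the genome, with 1421 to 2040 on each chromosome, 65 on unplaced contigs, 3 on the chloroplast genome and 2 on the mitochondrial genome. In the annotation's numbering of fragments along a chromosome, 230 of them (1.62%) had a direct neighbour from the same source element. Terminal inverted repeat fragments of any length made up 51.7% of all neighbours and 44.1% of all numbered fragments, and no test was run on this difference.

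Counts in these fragments were mostly low. The median fragment had 7 counts over the 6 libraries together, 1929 fragments (13.6%) had 0 in every library, and 912 (6.43%) had at least 100. Those 912 held 48.4% of the 377856 counts in short elements, and 975 fragments (6.87%) held the first 50%. The single most counted fragment had 1207 counts, and the 10 most counted together held 3.04%. The fragments' own lengths were not used here, since the IDs carry the length of the source alone, so levels are per fragment and not per base. On each chromosome the median fragment had between 6 and 8 counts.

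Next to the length limit, median counts were lower inside it than outside, and no test was run on this. The 112 fragments with a source less than 10 bp below it or at it had a median of 7 counts and 84.8% of them had any count. The 157 fragments of longer elements with a source at most 10 bp above it had a median of 11 counts and 87.9% had any count. Over all fragments the order was the reverse, also without a test. Those of short elements had a median of 7 counts and 86.4% had any count, against 5 counts and 81.0% for longer elements.

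The first comparison was the share of short elements in the feature counts of each library. They held 2.29%, 2.49% and 2.099% of all counts in SKI3 RNAi replicates 1, 2 and 3, against 2.05%, 2.26% and 1.99% in GUS RNAi replicates 1, 2 and 3. In such bulk samples fewer cells of a type and less RNA per cell cannot be told apart. The groups overlapped, since GUS RNAi replicate 2 lay above SKI3 RNAi replicate 3. The mean was 2.29% ± 0.194 in SKI3 RNAi and 2.1003% ± 0.138 in GUS RNAi (SD, n = 3 each), with an exact two-sided permutation p of 0.2, where 0.1 is the smallest that 3 libraries against 3 can give. Without SKI3 RNAi replicate 2 the difference was 0.094 instead of 0.19 percentage points, and it was 0.072 when the 10 most counted features of the whole table were left out of the totals.

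Short and longer elements were compared next. Longer elements held 11.7%, 12.5% and 11.7% in SKI3 RNAi, against 11.0%, 11.6% and 10.6% in GUS RNAi. They did not overlap between the groups, at an exact two-sided permutation p of 0.1, the smallest possible. Counts in short elements were 19.1% ± 1.04 of those in longer elements in SKI3 RNAi and 19.0% ± 0.405 in GUS RNAi (SD, n = 3 each). The log2 ratio of short to long differed by 0.0091 between the groups, with an exact two-sided permutation p of 0.9. A difference between short and long elements was therefore not detected.

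The share of short elements with any count depends on the depth of a library. At least 1 count was present in 63.2%, 61.1% and 58.9% of them in SKI3 RNAi and in 66.5%, 57.8% and 61.3% in GUS RNAi. With every library thinned to 2168297 counts, the shares were 58.4%, 59.8% and 55.4% in SKI3 RNAi and 55.2%, 57.8% and 53.0% in GUS RNAi, with an exact two-sided permutation p of 0.2. The direction of this difference thus turned with thinning, from -0.82 to 2.52 percentage points.

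The ID prefix of a fragment gives its superfamily in the common classification of plant transposons. DTX marks elements with terminal inverted repeats of no assigned superfamily, DTT the Tc1/Mariner superfamily, DTM Mutator, DTA hAT and DTC CACTA. DTX made up most of the short elements, with 10346 fragments and 71.0% of their counts, followed by DTT with 2067 fragments and 15.9%, and DTM with 1402 fragments and 8.45%. DTA had 304 fragments and 3.65% of the counts, and DTC had 73 fragments and 1.02%. The rarer prefixes had more counts per fragment, with medians of 15 for DTC and 12 for DTA, against 8 for DTT, 7 for DTM and 6 for DTX. Of the 73 DTC fragments, 15 belonged to DTC_singleton_family30 and 14 to DTC_singleton_family38, each with 1 source element. Their medians were 89 and 59.5 counts, so the DTC median rests on few source elements.

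For each prefix the share of all counts overlapped between the groups. The exact tests could not have given any prefix a p under 0.1. DTX held 1.62% ± 0.138 of all counts in SKI3 RNAi and 1.49% ± 0.0977 in GUS RNAi, and DTT held 0.371% ± 0.0379 and 0.328% ± 0.0178 in the same order of groups (SD, n = 3 for all prefixes). DTM held 0.193% ± 0.0133 in SKI3 RNAi and 0.178% ± 0.0133 in GUS RNAi. DTA held 0.0802% ± 0.00294 in SKI3 RNAi and 0.0798% ± 0.00788 in GUS RNAi, and DTC held 0.0236% ± 0.00390 in SKI3 RNAi and 0.0215% ± 0.00287 in GUS RNAi. The exact two-sided permutation p was 0.2 for DTX and DTT, 0.3 for DTM, 0.7 for DTC and 1 for DTA, and the smallest value adjusted over the 5 prefixes was 0.5. As a part of the counts in short elements alone, DTA held 3.50%, 3.34% and 3.68% in SKI3 RNAi, against 3.71%, 3.94% and 3.74% in GUS RNAi. These values did not overlap, and the exact two-sided permutation p of 0.1 was the smallest possible, before any adjustment over the 5 prefixes.

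**Figure D1:**
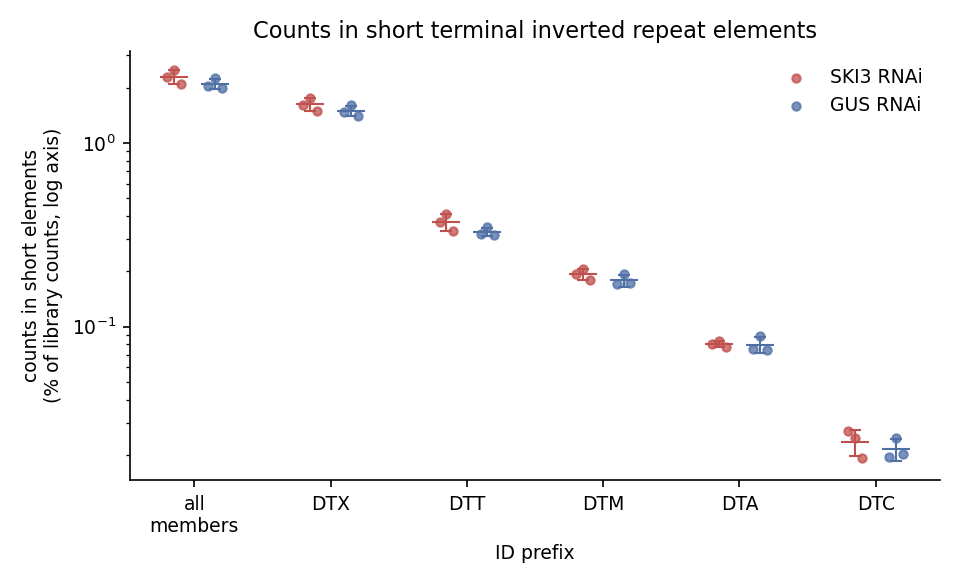
Share of library counts in short terminal inverted repeat elements, in percent on a log axis, for all of them and by ID prefix. Points are libraries, bars are means with SDs (n = 3 per group), with SKI3 RNAi left of GUS RNAi; in every pair the groups overlap.

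Single fragments were then compared by edgeR's quasi-likelihood test on the whole table. Enough counts for the test were present in 1656 short fragments, 11.7% of them, against 9.77% of the longer elements and 12.1% of all features. The 1656 came from 857 source elements and held 63.4% of the counts in short elements. None had an adjusted p under 0.05 in edgeR or in DESeq2, where the share called over all tested features was also 0%, and the smallest adjusted p of a short fragment was 0.743. Without SKI3 RNAi replicate 1 there were 2 with an adjusted p under 0.05.

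At an unadjusted p under 0.05 in edgeR, 56 short fragments had higher and 47 had lower values in SKI3 RNAi. That was 3.38% and 2.84% of the tested short fragments, close to the 3.58% higher and 2.99% lower over all 48283 tested features. In either direction it was 6.22% of the short fragments and 6.58% of all. DESeq2 gave 4 higher (0.242%) and 29 lower (1.75%), where 1.01% higher and 1.36% lower were called over all features. Short fragments were thus below that share among higher ones and above it among lower ones, and no test was run on this. Leaving out GUS RNAi replicate 2 reduced the higher ones to 25. Leaving out GUS RNAi replicate 3 reduced the lower ones to 21, leaving out SKI3 RNAi replicate 2 reduced them to 22, and leaving out GUS RNAi replicate 1 raised them to 73. The groups did not overlap in 141 higher short fragments (8.51%) and 69 lower ones (4.17%), against 7.35% higher and 5.6% lower over all tested features. In either direction this was 12.7% of the short fragments and 13% of all. These values, and those of single fragments, elements and families below, are CPM scaled with edgeR's TMM factors, which correct library totals for a few very abundant features.

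The bulk of the tested short fragments lay slightly above the bulk of the table. Their median log2 fold change (SKI3 RNAi over GUS RNAi) was 0.093, the middle 50% lay between -0.17 and 0.34, and 1001 of the 1656 (60.4%) were above 0, against 52% of all tested features. The median was 0.018 over all tested features, 0.022 over the longer elements and 0.0024 over helitrons, another order of DNA transposons. Scaling by library totals alone placed the median of all tested features at 0.12 and that of short fragments at 0.19. The gap of 0.075 between both medians kept its sign without each library in turn, at 0.040 (SKI3 RNAi replicate 2 left out, where the median of short fragments was 0.060) to 0.098. It was 0.016 without a filter on low counts and 0.029 with a minimum of 1 CPM in 3 libraries. With that minimum the median of short fragments was 0.039. The median log2(CPM + 1) of the tested short fragments was 2.88, 2.96 and 2.86 in SKI3 RNAi and 2.76, 2.87 and 2.79 in GUS RNAi, so SKI3 RNAi replicate 3 lay below GUS RNAi replicate 2.

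The most counted fragments lay on the other side. Of the 25 tested short fragments with a mean of at least 40 CPM, a level set after the values were seen, 24 had a log2 fold change below 0. The 25 ranged from -0.67 to 0.029. Among them 17 had the library profile of the most counted fragment, described below, and the number of separate measurements behind these is not known. The share below 0 over all tested features at that level was not computed. The 10 most counted came from 8 families and 9 source elements of 303 to 629 bp, carried 4 different prefixes and lay on 6 chromosomes. At the top stood fragment MtrunA17Chr4-30607 of DTX_family5, whose source is element2306 at chr2:1384203-1384831. It had 58.0, 44.6 and 70.0 CPM in SKI3 RNAi replicates 1, 2 and 3, against 82.5, 76.3 and 80.6 CPM in GUS RNAi replicates 1, 2 and 3. Its values did not overlap between the groups, and edgeR gave a log2 fold change of -0.47 ± 0.198 (standard error) at an adjusted p of 0.746.

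The 10 included 3 fragments of other prefixes, with nearly the same values. Fragment MtrunA17Chr3-19736 of DTT_family10, from element15259 at chr8:29919819-29920172, had 55.3, 44.2 and 70.0 CPM in SKI3 RNAi, against 81.4, 74.0 and 80.0 CPM in GUS RNAi. The hAT fragment MtrunA17Chr2-17083 of DTA_family1, from element11316 at chr6:19418664-19418976, had 56.0, 45.4 and 69.3 CPM in SKI3 RNAi, against 79.9, 73.5 and 79.3 CPM in GUS RNAi. The Mutator fragment MtrunA17Chr3-28120 of DTM_family2, from element13352 at chr7:36792398-36792700, had 52.7, 41.4 and 69.7 CPM in SKI3 RNAi, against 79.3, 69.9 and 76.8 CPM in GUS RNAi. Across all 10, SKI3 RNAi replicate 2 was the lowest library and SKI3 RNAi replicate 3 the highest of its group.

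In 9 of the 10 the groups were apart, where 5.6% of all tested features were lower without overlap. Because the 10 had nearly the same library profile, the 9 are not counted as separate results. Their log2 fold changes ran from -0.57 to -0.45 with standard errors of 0.195 to 0.234 and adjusted p-values of 0.743 to 0.761 in edgeR. The fold changes were -0.37 to -0.31 when SKI3 RNAi replicate 2 was left out, and -0.80 to -0.63 when the third was.

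**Figure D2:**
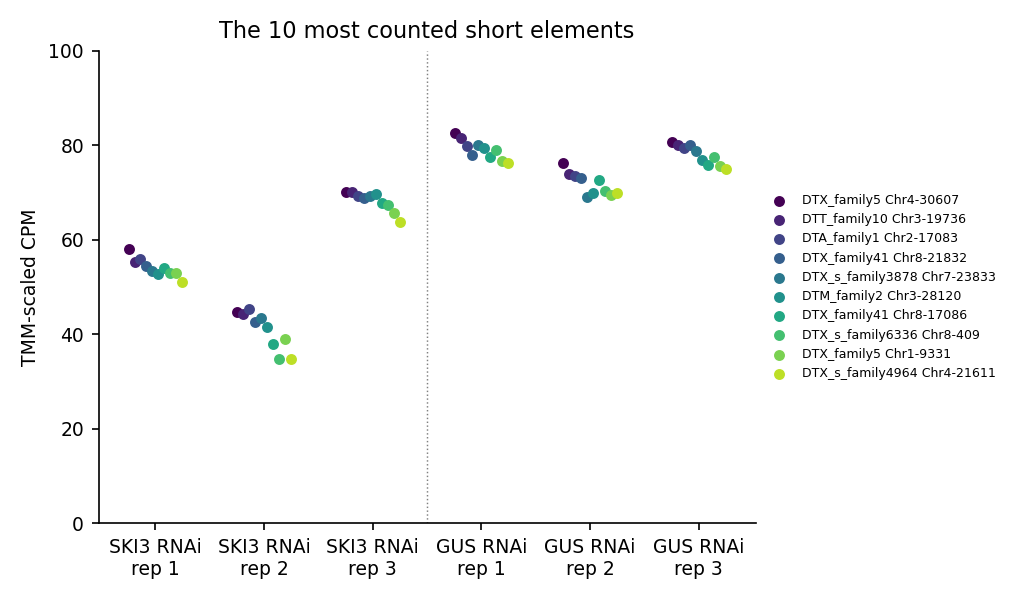
TMM-scaled CPM of the 10 most counted short fragments in each library, with SKI3 RNAi left of GUS RNAi and 1 colour per fragment (s_family is a singleton family). All 10 keep within 50.98 to 58.03 CPM in SKI3 RNAi replicate 1 and within 34.67 to 45.43 CPM in SKI3 RNAi replicate 2, although they come from 8 families.

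These 10 fragments divided their counts among the libraries almost identically. Between 13.7% and 14.3% of a fragment's own counts came from SKI3 RNAi replicate 1, 7.74% to 9.65% from replicate 2 and 14.8% to 15.6% from replicate 3. GUS RNAi replicates 1, 2 and 3 gave 25.6% to 26.9%, 13.2% to 14.2% and 21.5% to 22.2%. A wider search took every feature with at least 100 counts whose share in each library lay within 3 percentage points of that of the most counted fragment. It found 1178 features in the whole table, of which 40 were short fragments of 27 families and 30 source elements, with 107 to 1207 counts. The others included 112 genes, 279 promoters and 282 repeat regions. By the way they were found these 40 were all lower in SKI3 RNAi, and they made up 24 of the 47 lower fragments at an unadjusted p under 0.05. Whether they hold the same reads was not tested, and the number of separate measurements behind them is not known.

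Fragments of the same source element were far apart in level in some cases and close in others. The second tested fragment of element2306, MtrunA17Chr4-30579, had 5.03, 7.97 and 5.09 CPM in SKI3 RNAi, against 5.50, 3.16 and 4.67 CPM in GUS RNAi, far below its relative with the most counts. Likewise fragment MtrunA17Chr5-15025 of element13352 had 6.71, 11.2 and 5.87 CPM in SKI3 RNAi, against 4.71, 3.16 and 4.67 CPM in GUS RNAi. Both fragments of element4683 among the 10 were alike instead. Fragment MtrunA17Chr8-21832 had 54.3, 42.6 and 68.9 CPM in SKI3 RNAi, against 78.0, 73.1 and 80.0 CPM in GUS RNAi. Fragment MtrunA17Chr8-17086 had 54.0, 37.9 and 67.7 CPM in SKI3 RNAi, against 77.5, 72.6 and 75.9 CPM in GUS RNAi.

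**Figure D3:**
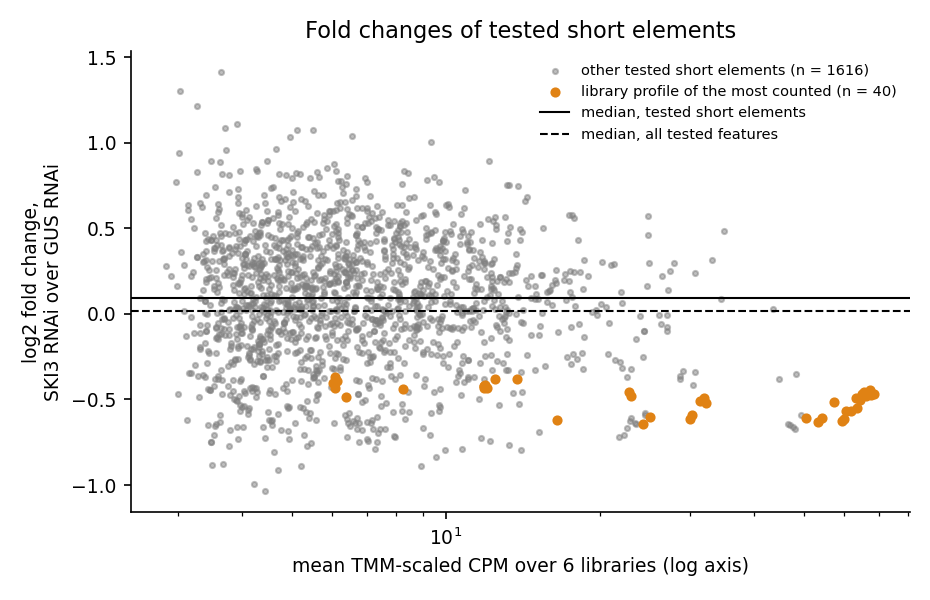
Log2 fold change (SKI3 RNAi over GUS RNAi) of the 1656 tested short fragments against their mean TMM-scaled CPM on a log axis. Orange points are the 40 fragments with the library profile of the most counted one, the solid line is the median of the tested short fragments (0.093) and the dashed line that of all tested features (0.018); most points above 40 CPM lie below 0.

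The fragments with the smallest p among those with higher values in SKI3 RNAi came from few source elements. Of the first 5, 3 were fragments of element2377 of DTM_family108, a Mutator family, with its source at chr2:3051022-3051778. Fragment MtrunA17Chr5-18832 had 7.04, 4.38 and 4.30 CPM in SKI3 RNAi, against 1.31, 2.26 and 2.49 CPM in GUS RNAi. In edgeR its log2 fold change was 1.41 ± 0.406 (standard error), at an adjusted p of 0.743. Both other tested fragments of the element were also among these 5, so their direction was given by the choice and is no separate result. Fragment MtrunA17Chr4-7392 had 7.71, 6.38 and 5.87 CPM in SKI3 RNAi, against 3.40, 3.61 and 2.80 CPM in GUS RNAi. Fragment MtrunA17Chr4-28489 had 5.03, 3.99 and 3.91 CPM in SKI3 RNAi, against 1.57, 1.80 and 1.87 CPM in GUS RNAi. Every SKI3 RNAi library lay above every GUS RNAi library in these 3 fragments, which were the tested ones among the 9 of this element.

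The sum over all 9 fragments of element2377 was 24.8, 18.3 and 16.4 CPM in SKI3 RNAi, against 7.33, 12.2 and 10.3 CPM in GUS RNAi. The only other short element of the family, element7876 with 4 fragments, had 8.72, 7.97 and 6.26 CPM in SKI3 RNAi, against 2.62, 3.61 and 4.67 CPM in GUS RNAi. Neither sum overlapped between the groups, and both had an exact two-sided permutation p of 0.1, the smallest possible. The 3 fragments named above for their small p gave 61, 84 and 51 of the 250 counts of element2377. The lack of overlap in its sum is therefore not separate from that choice.

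Element8127 of DTX_singleton_family4853, with its source at chr4:47188568-47189263, gave 1 further fragment. Fragment MtrunA17Chr5-18807 had 18.4, 12.8 and 16.4 CPM in SKI3 RNAi, against 10.7, 6.77 and 7.78 CPM in GUS RNAi, and its log2 fold change in edgeR was 0.89 ± 0.261 (standard error), at an adjusted p of 0.743. Both other tested fragments of this element also had no overlap between the groups, where 7.35% of all tested features were higher without overlap. The log2 fold changes of the 3 ran from 0.68 to 0.89. The element was reached through a fragment picked for its small p, and whether its fragments share reads was not tested. The last of the 5, fragment MtrunA17Chr1-655 of DTX_singleton_family8088, had 9.73, 9.96 and 6.65 CPM in SKI3 RNAi, against 3.14, 4.51 and 5.29 CPM in GUS RNAi. Its relative MtrunA17Chr2-25664 from the same source, element13545, did not share this, with 4.36, 6.78 and 5.09 CPM in SKI3 RNAi and 4.98, 5.41 and 5.29 CPM in GUS RNAi.

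Among those with lower values, fragment MtrunA17Chr3-27508 of DTX_singleton_family6195 had the smallest p. It had 8.05, 7.17 and 6.65 CPM in SKI3 RNAi, against 13.6, 11.3 and 13.1 CPM in GUS RNAi. The groups did not overlap, and edgeR's log2 fold change was -0.80 ± 0.233 (standard error), at an adjusted p of 0.743. Fragment MtrunA17Chr8-24252 of DTX_family8 had 11.1, 8.37 and 11.3 CPM in SKI3 RNAi, against 20.4, 15.3 and 17.4 CPM in GUS RNAi. Its source, element2921 at chr2:17298609-17299365, had 5 tested fragments, all with a log2 fold change below 0, from -0.79 to -0.42. The groups did not overlap in 2 of them. Fragment MtrunA17Chr8-24252, picked for its small p, is among the 5 and among these 2. Over all tested features 52% had a log2 fold change above 0 and 5.6% were lower without overlap. Whether the fragments of this element share reads was not tested.

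Fragment MtrunA17Chr7-6976 of DTX_singleton_family7508 had 7.38, 6.38 and 6.65 CPM in SKI3 RNAi, against 9.17, 13.1 and 14.6 CPM in GUS RNAi. The 2 that remained were abundant. Fragment MtrunA17Chr3-27225 of DTX_singleton_family1748 had 47.6, 34.3 and 58.3 CPM in SKI3 RNAi, against 74.6, 69.9 and 71.9 CPM in GUS RNAi. Fragment MtrunA17Chr4-30368 of DTX_family5 had 44.9, 32.3 and 52.0 CPM in SKI3 RNAi, against 68.9, 62.3 and 65.6 CPM in GUS RNAi. Both showed the order of libraries seen in the 10 most counted fragments.

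**Figure D4:**
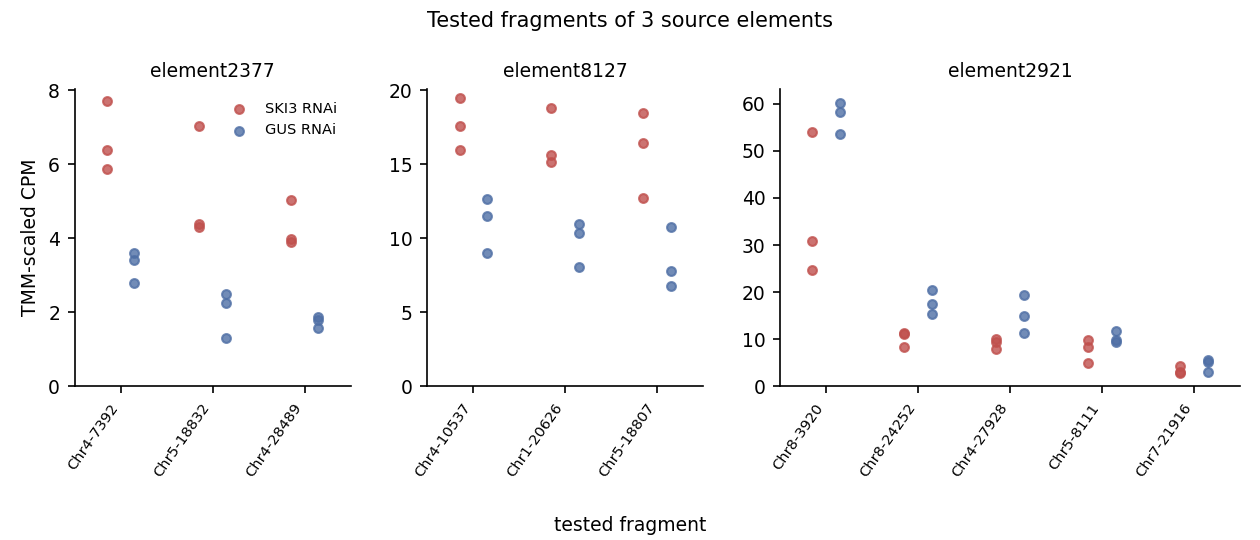
TMM-scaled CPM of every tested fragment of 3 source elements, with SKI3 RNAi left of GUS RNAi and 1 point per library. The groups do not overlap in the 3 fragments of element2377 and the 3 of element8127, and they do not overlap in 2 of the 5 of element2921. Over all tested features 7.35% were higher and 5.6% were lower in SKI3 RNAi without overlap. The elements were reached through fragments picked for their small p.

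Fragments of 1 source element resembled each other more than fragments at large. Among 321 source elements with at least 2 tested fragments, 1120 fragments in all, the SD of the log2 fold change was 0.260 within an element and 0.380 over all these fragments. Whether fragments of an element share reads was not tested. Exactly the same 6 counts as another tested short fragment were found in 37.

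Families were compared by the sum of their short fragments. The 241 families with at least 10 fragments and 100 counts held 5468 fragments and 49.9% of the counts. Their sums did not overlap between the groups in 21 families with higher values (8.71%) and 17 with lower values (7.05%) in SKI3 RNAi. Over all tested features it was 7.35% and 5.6%, an unlike measure, since those are single features and not sums. The share over sums of other features was not computed. The smallest adjusted p of a family was 0.634 from exact two-sided permutation tests. Such a test can give no p under 0.1 here, so no family could have had an adjusted p under 0.05. The other 3064 families together held 1.15% ± 0.0963 of all counts in SKI3 RNAi and 1.05% ± 0.0591 in GUS RNAi (SD, n = 3 each, exact two-sided permutation p 0.2).

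The 5 families with the most counts differed in the direction of their values. DTX_family1, with 55 fragments of 26 source elements, had 635, 725 and 631 CPM in SKI3 RNAi, against 564, 667 and 618 CPM in GUS RNAi. DTX_family0, the family with 288 fragments, had 421, 444 and 379 CPM in SKI3 RNAi, against 339, 456 and 338 CPM in GUS RNAi. DTX_family7 had 324, 216 and 304 CPM in SKI3 RNAi, against 225, 267 and 263 CPM in GUS RNAi. All 3 overlapped between the groups, and their exact two-sided permutation p-values were 0.4, 0.4 and 0.5.

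DTX_family5 and DTX_singleton_family1356 had lower values in SKI3 RNAi without overlap on this scale. DTX_family5 had 284, 261 and 294 CPM in SKI3 RNAi, against 347, 316 and 341 CPM in GUS RNAi. Its difference of -54.9 CPM became 11.2 CPM without the fragments of the common library profile, -0.97 CPM without its 10 most counted fragments and -34.7 CPM with library totals alone. DTX_singleton_family1356, which is 25 fragments of 1 source element of 583 bp, had 183, 166 and 265 CPM in SKI3 RNAi, against 310, 307 and 272 CPM in GUS RNAi. Its difference of -91.4 CPM became 1.22 CPM without its 10 most counted fragments. With library totals alone it was -77.3 CPM, the groups overlapped and the exact two-sided permutation p was 0.2. Counts within a family were uneven, from 4 to 583 per fragment in DTX_family1 and from 3 to 884 in DTX_singleton_family1356.

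The largest ratios between the group means of family sums were in small families, named here after their values were seen. DTX_family110, with 34 fragments of source elements of 169 to 212 bp, had 41.6, 32.7 and 31.3 CPM in SKI3 RNAi, against 19.9, 10.8 and 19.0 CPM in GUS RNAi, a ratio of means of 2.12. DTM_family108, described above, followed with a ratio of 2.03. In the other direction DTX_singleton_family1549, with 12 fragments of 1 source element, had 3.35, 5.98 and 3.52 CPM in SKI3 RNAi, against 22.5, 14.0 and 11.5 CPM in GUS RNAi, a ratio of 0.268. None of the fragments of DTX_family110 or DTX_singleton_family1549 had enough counts for the test of single features, and their largest fragments had 48 and 53 counts over the 6 libraries.

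The length of the source element was examined last, in bins of 200 bp. Fragments with sources over 200 and up to 400 bp made up 41.0% of the short elements and held 45.9% of their counts, and those over 400 and up to 600 bp made up 28.2% and held 31.5%. Sources over 600 bp had the lowest share of fragments with any count, 81.3%, against 85.5% in the shortest bin, 88.7% in the second bin and 87.0% in the third. The median log2 fold change was 0.23 for the 173 tested fragments of up to 200 bp, 0.041 for 726 fragments of the second bin, 0.11 for 571 of the third and 0.086 for 186 of the last. That of the second bin turned to -0.0050 when SKI3 RNAi replicate 2 was left out and was 0.067 when the first was. Leaving out GUS RNAi replicates 1 and 2 in turn gave 0.0039 and 0.076 for it. The last bin was at 0.048 and 0.054 with SKI3 RNAi replicates 2 and 3 left out in turn.

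In the shortest bin 8 fragments had higher values and 0 had lower values in SKI3 RNAi at an unadjusted p under 0.05 in edgeR, and 0 passed adjustment there as in the whole table. Over all tested features 3.58% had higher and 2.99% had lower values at that threshold. With single libraries left out its median ran from 0.14 (SKI3 RNAi replicate 2 left out) to 0.37 (SKI3 RNAi replicate 3 left out). The bin held 0.233%, 0.277% and 0.183% of all counts in SKI3 RNAi, against 0.187%, 0.206% and 0.177% in GUS RNAi. SKI3 RNAi replicate 3 thus lay inside the GUS RNAi range, and the exact two-sided permutation p was 0.3.

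Families of the shortest bin differed among themselves. DTX_family97 had 108, 214 and 117 CPM in SKI3 RNAi, against 106, 114 and 88.7 CPM in GUS RNAi, with 1 high library. DTX_family32 had 149, 106 and 66.1 CPM in SKI3 RNAi, against 103, 103 and 121 CPM in GUS RNAi, which spread on both sides of the controls. DTT_family3 had 127, 144 and 93.1 CPM in SKI3 RNAi, against 95.6, 105 and 80.9 CPM in GUS RNAi, with overlap. The 8 fragments of DTT_singleton_family899, a Tc1/Mariner element of 130 bp, had 83.2, 72.9 and 63.4 CPM in SKI3 RNAi, against 56.0, 55.5 and 60.0 CPM in GUS RNAi. These did not overlap, at an exact two-sided permutation p of 0.1, the smallest possible. This family has fewer than the 10 fragments required of families above, and the share without overlap over such sums was not computed.

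**Figure D5:**
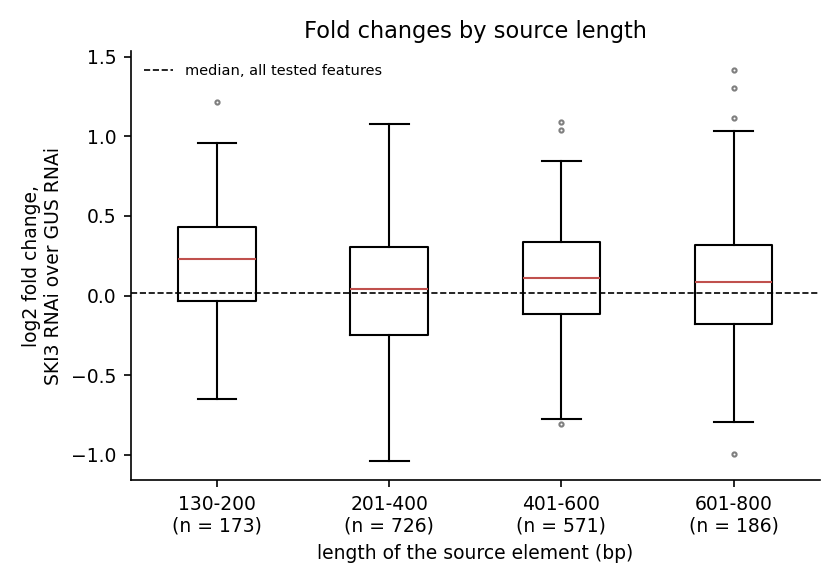
Log2 fold change (SKI3 RNAi over GUS RNAi) of the tested short fragments by length of the source element. Boxes span the middle 50% with the median in red, whiskers reach 1.5 box lengths and circles are fragments beyond; the medians are 0.23, 0.041, 0.11 and 0.086 from the shortest to the longest bin, and the dashed line is the median of all tested features (0.018).

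The CACTA fragments had the highest median log2 fold change of any prefix, 0.31 over 28 tested fragments, and 0 of the 28 had an unadjusted p under 0.05 in edgeR. It was 0.19 without GUS RNAi replicate 3. It was 0.097 without SKI3 RNAi replicate 1, below the 0.13 of DTT in the same fit, so the rank rests on that library. Of the 28, 14 were fragments of the single source of DTC_singleton_family30, whose 15 fragments together had 94.3, 94.1 and 68.5 CPM in SKI3 RNAi, against 59.4, 81.7 and 55.1 CPM in GUS RNAi. The single fragment of DTC_singleton_family16 went the other way, with 37.6, 43.4 and 46.2 CPM in SKI3 RNAi and 41.6, 62.3 and 58.8 CPM in GUS RNAi, and the groups overlapped in both. The medians of the other prefixes were 0.10 for DTT, 0.092 for DTX, 0.085 for DTA and 0.062 for DTM. Single libraries moved these too. DTT was at 0.056 without GUS RNAi replicate 1, and DTX at 0.045 without SKI3 RNAi replicate 2. DTM was at 0.0058 with SKI3 RNAi replicate 1 left out, and omitting GUS RNAi replicate 1 gave 0.011. For DTA, leaving out SKI3 RNAi replicates 1, 2 and 3 in turn gave 0.055, 0.028 and 0.019, and leaving out GUS RNAi replicates 1 and 2 gave 0.038 and 0.14.

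The elements with the most fragments differed in their counts. The 44 fragments of element3386 summed to 149, 196 and 153 CPM in SKI3 RNAi, against 134, 259 and 132 CPM in GUS RNAi, so GUS RNAi replicate 2 stood above all other libraries. The 37 fragments of element13683 summed to 68.1, 67.8 and 59.5 CPM in SKI3 RNAi, against 64.9, 65.4 and 43.6 CPM in GUS RNAi. The 35 fragments of element5900, by contrast, summed to 7.38, 5.58 and 3.52 CPM in SKI3 RNAi, against 8.90, 5.87 and 3.42 CPM in GUS RNAi.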

How the data were processed

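The authors' tables, 1 per library, give whole-number counts of each annotated feature, deposited without normalization. Per the submitters' processing notes cutadapt 2.10, Bowtie 1.3.1 and DESeq2 1.34.0 were used, and the treatment of reads with several alignments, the use of strand and the genome release are not given in the sources used here. Chromosomes are named as in MtrunA17. A stray header row in the SKI3 RNAi replicate 3 table, which carries the numbers 21 and 22 without a unit, was dropped. Totals are of the tables.

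Counts were tested over the whole table with edgeR 4.0.16 in R 4.3.3, with TMM factors, filterByExpr at its minimum count of 10, group as the only term and Benjamini-Hochberg adjustment at 0.05. DESeq2 1.42.0 was an alternative. The standard error is the log2 fold change divided by the root of F. Exact two-sided permutation tests over the libraries served for single values. Fragments named are the 10 most counted and the 5 with the smallest p in each direction; families named are the 5 most counted, others being chosen after their values were seen. Members and lists were chosen with earlier results of these data known. The main test did not take the replicate numbers as pairs, and a fit with the number as a block is given below. Same-numbered libraries' deviations from their group means correlated at 0.0710, 0.190 and 0.251 over all tested features. Over the short fragments these were 0.0802, 0.0742 and 0.0591. Libraries with different numbers were not correlated, so these values do not settle whether the numbers are pairs. Sequences were not used here.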

Additional observations from a re-analysis of the deposited data

How the results depend on the processing

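The number of short fragments with an adjusted p under 0.05 stayed at 0 with RLE factors, library totals alone, no filter, a minimum of 1 CPM in 3 libraries, DESeq2, identical counts kept once, length limits of 600 and 400 bp and both settings added after seeing the data (without the common library profile, and with fragments summed per source element). It was 0 to 2 with single libraries left out. Higher fragments at an unadjusted p under 0.05, 56 in the main test, numbered 92 with library totals alone, 246 without a filter, 128 with the minimum of 1 CPM, 4 with DESeq2, 28 at 400 bp and 25 to 80 with single libraries left out. Lower ones, 47 in the main test, numbered 26, 292, 117, 29 and 31 in the same settings, 26 without the common library profile and 21 to 73 with single libraries left out. The filters and the 400 bp limit change how many fragments are tested; the cause of the other shifts was not tested.

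The median log2 fold change was 0.19 with library totals alone, 0.039 with the minimum of 1 CPM and 0.060 to 0.11 with single libraries left out. Its gap to all tested features was 0.016 without a filter, 0.029 with the minimum of 1 CPM and 0.040 to 0.098 with single libraries left out. The log2 ratio of short to long turned to -0.016 at 400 bp and ran from -0.017 to 0.055 with single libraries left out. The difference in the share of counts ran from 0.094 to 0.29 percentage points. For DTA it turned to -0.0049 without the 10 most counted features in the totals, -0.00077 at 600 bp and -0.0031 at 400 bp, and ran from -0.0022 to 0.0049 with single libraries left out. That for DTC ran from 0.00052 to 0.0043, for DTM from 0.0081 to 0.022, for DTT from 0.024 to 0.062 and for DTX from 0.061 to 0.20. The difference in fragments with at least 1 count turned to 2.52 percentage points after thinning and ran from -2.86 to 1.49, and that with at least 10 counts, -1.23, turned to 1.36 and ran from -2.94 to 0.20. The family sums turned to 11.2 CPM for DTX_family5 without the common library profile and to 1.22 CPM for DTX_singleton_family1356 without its 10 most counted fragments. The 20 named fragments kept their direction and had adjusted p-values of 0.338 to 1.00 over all 268 values that the alternative settings gave for them.

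With the replicate number as a block, 0 short fragments passed, 55 were higher and 57 lower at an unadjusted p under 0.05, and the exact sign-flip p for the share of counts was 0.25, the smallest that 3 pairs can give.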

Other observations

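Both short fragments with an adjusted p under 0.05 in edgeR without SKI3 RNAi replicate 1 were lower in the 2 remaining SKI3 RNAi libraries and high in the one left out. Fragment MtrunA17Chr8-16842 of DTX_singleton_family436, with its source at chr1:17721781-17722300, had 72, 1 and 2 counts in SKI3 RNAi replicates 1, 2 and 3, against 35, 18 and 34 counts in GUS RNAi replicates 1, 2 and 3. Fragment MtrunA17Chr6-5741 of DTX_singleton_family6593, with its source at chr6:12324776-12325121, had 57, 0 and 0 counts in SKI3 RNAi, against 30, 14 and 31 counts in GUS RNAi. Over all 6 libraries their log2 fold changes were -0.083 and -0.25, with adjusted p-values of 0.991 and 0.971 in edgeR. They were the 2 short fragments among 231 features whose counts stood within 3 percentage points of the ratio 4 to 0 to 0 in SKI3 RNAi and 2 to 1 to 2 in GUS RNAi.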
